A study of Mus musculus with 3 samples.

Results

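The lysosome genes described here encode 33 acid hydrolases, lysosomal membrane proteins, soluble cofactors and transcription factors, out of 27179 genes in the deposited table. They were chosen by name and found through their Entrez identifiers, with no threshold on their values, though earlier results of these data were known when the list was drawn up. All 33 were in the table and all 33 passed the expression filter (a mean level of at least 50 over the 3 libraries), which 11067 genes passed. They comprise 11 glycosidases, 5 sulfatases, 3 lipid hydrolases, 3 soluble proteins that are not enzymes of this kind, 3 proteases, 6 membrane proteins and 2 transcription factors. The lysosome is the acidic compartment in which cells break down macromolecules delivered by endocytosis, phagocytosis and autophagy. Its hydrolases are made in the secretory pathway, tagged with mannose 6-phosphate and sorted to the compartment by receptors, while glycosylated membrane proteins line its wall and export the products. TFEB and its relatives are basic helix-loop-helix factors that activate many of these genes, and phagocytes such as macrophages are known for a large lysosomal compartment.

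The measurements are messenger RNA levels of wild-type mouse bone marrow stromal cell cultures grown in 3% oxygen with extracellular vesicles, the membrane particles that cells release, for 3 days. All-EV preparations came from wild-type animals, Ocn-EV preparations from CAGS-Snorkel mice crossed with Ocn-Cre, a driver of mature osteoblasts, and Prx1-EV preparations from CAGS-Snorkel mice crossed with Prx1-Cre, a driver of limb mesenchyme. The mice of all 3 groups were C57BL/6N and 6 months old, and the bone marrow plasma of 5 mice (2 males and 3 females) was pooled for each preparation, which was then passed over HA-antibody beads. The labels do not say how these beads took up vesicles of wild-type mice. There was 1 library per group, so none of the differences below has a replicate check, no test between conditions was possible, and the difference between 2 cultures and the effect of the vesicles cannot be told apart.

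A level is the deposited normalised count, 3 levels of a gene are listed with All-EV first, then Ocn-EV, then Prx1-EV, and a level per kilobase is that count divided by the length of the longest coding transcript. Bracketed ranges after log2 ratios are 95% exact intervals from the recovered reads, which cover counting error only. The libraries held 14233978 to 17269204 reads assigned to genes. The cultures were not purely stromal by their transcripts. Of 20 macrophage markers all had reads in each library, and the list summed to levels of 308511, 194127 and 175896. Lyz2 alone made up 140306, 51741 and 40548 of those sums. By single gene, 14 of the 20 were higher and 6 lower than in All-EV in each of the other cultures. Among the 11067 genes that passed the filter, 48.7% were higher in Ocn-EV and 50% in Prx1-EV. The median log2 ratios of the 20 were 0.62 in Ocn-EV and 0.36 in Prx1-EV. Of 12 stromal fibroblast markers 11 had reads in each library, Lum was at 0 in all 3, and the list summed to 15121.5, 80994 and 53836.5. Most of that was Col1a1 (7861, 44981 and 30399.5) and Col1a2 (4596, 25448 and 16630). The 8 that passed the filter were all higher than in All-EV in both cultures. Below the filter, Dcn went the other way (23, 3 and 3 reads) and Lepr had 11, 16 and 13 reads. Osteoclast markers summed to 19029, 11484 and 13092.5, with Dcstamp and Calcr at 0 in all 3 libraries. Atp6v0d2 was the largest of them (9249, 8880 and 10254). Mmp9 was highest in All-EV (2865, 39 and 52) and Nfatc1 lowest there (399, 691 and 631). Of 6 past the filter, 1 was higher and 5 lower than in All-EV with Ocn-EV, and 2 and 4 with Prx1-EV. Neutrophil markers summed to 9038, 851 and 1015, nearly all of it Mmp8, with Ly6g, Elane and Ltf at 0. The 8 B and T cell markers had 9 to 39 reads in all. Fewer cells of a type and less RNA per cell cannot be told apart in bulk libraries, and the part of these cell types in the lysosomal values was not tested.

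Lysosomal transcripts were abundant in every culture. The 33 genes held 3.78% (3.78 to 3.79), 3.39% (3.38 to 3.40) and 3.61% (3.60 to 3.62) of the reads of the 3 libraries. Psap, the gene of the saposin precursor, supplied 62.2%, 54.7% and 56.8% of those reads. Without Psap the order of the libraries by share of reads was different, at 1.43% (1.42 to 1.44), 1.54% (1.53 to 1.54) and 1.56% (1.55 to 1.57). By summed deposited levels the order stayed the same. Those sums were 666414, 499904 and 544229 with Psap and 251649, 226652 and 235116 without it, so All-EV was highest in each. Per kilobase, 19 (All-EV), 19 (Ocn-EV) and 20 (Prx1-EV) of the 33 genes lay in the top 10% of the 10798 tested genes with a known length. In All-EV 3 lay below the median gene, namely the sulfatases Arsb, Sgsh and Ids, and Arsb and Sgsh did so in the other libraries as well.

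**Figure D1:**
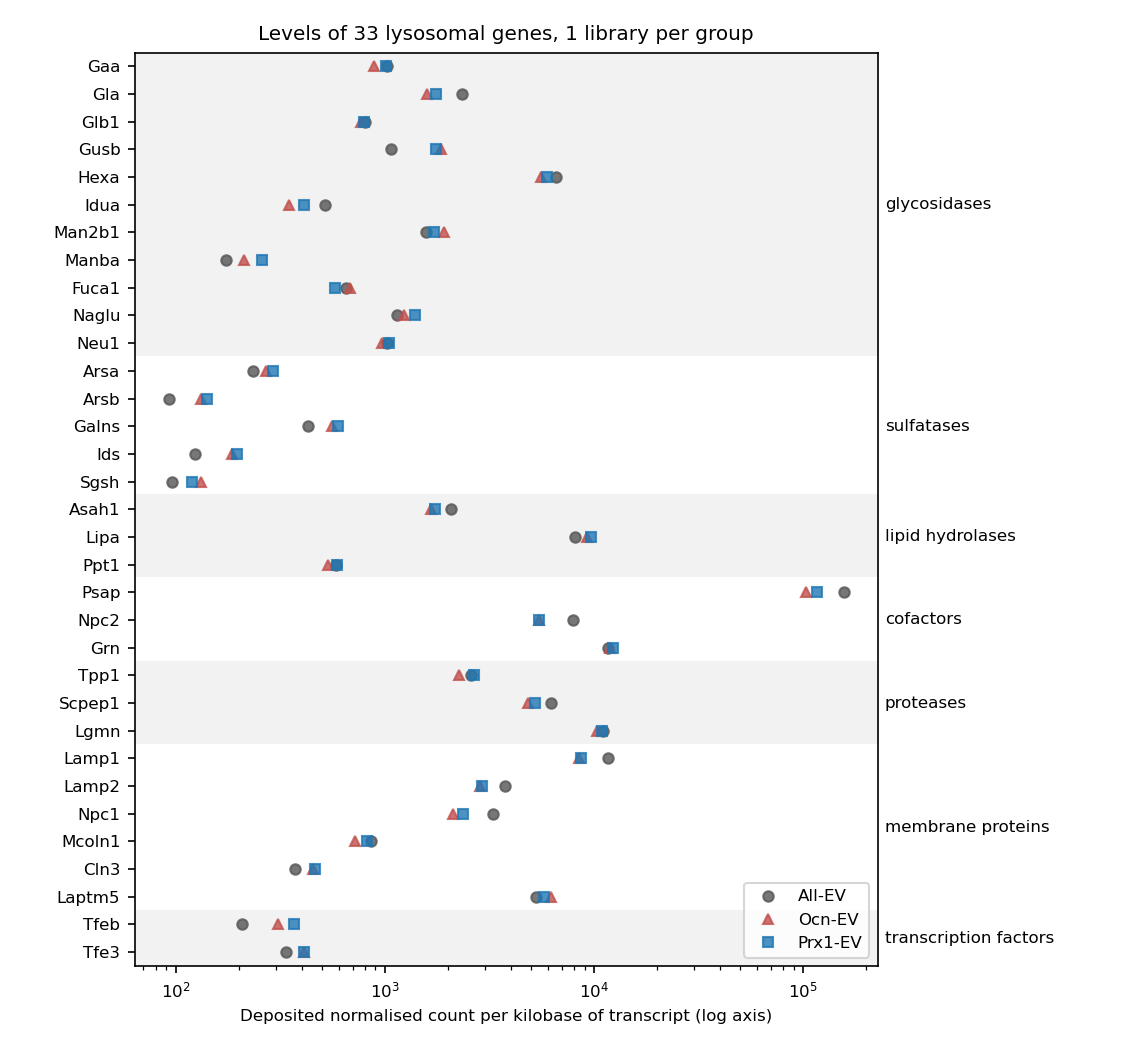
Level of each of the 33 genes per kilobase of transcript on a log axis, with 1 point for each of the 3 libraries and genes grouped by role (cofactors are Psap, Npc2 and Grn). Psap stands alone at the right, at 102842 to 156103 per kilobase, and the sulfatases form the lowest class.

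The TFEB family binds the E-box CACGTG, and an extended palindrome around it is known from lysosomal promoters as the CLEAR element. Promoter sequences (250 bases before to 50 after a start site, RefSeq, GRCm38.p6) were at hand for 30 of the 33 genes, as 36 promoters. CACGTG, which reads the same on both strands, was present in 10 of the 36 (27.8%), against 7.15% of all 32851 promoters of this length and 10.2% of the 11371 promoters of tested genes. The 8-base form TCACGTGA, which contains it, was in 3 of the 36 (8.33%, against 0.974% and 1.94%), and the 10-base palindrome that adds a G before and a C after that form in 1 (2.78%, against 0.326% and 0.730%). These letters describe the sequence and are no evidence of binding in these cells. The 4 promoters below carry more than 1 copy of the E-box, shown in capitals, 5′ to 3′ on the gene's strand. That of Lamp1, chr8:13158911-13159210 (plus strand), has 4 copies within 61 bases before the start. That of Mcoln1, chr8:3500269-3500568 (plus strand), has 2, the nearer in the form TCACGTGA. That of Cln3, chr7:126583187-126583486 (minus strand), has 2, the nearer to the start in the 10-base form, and that of Gla, chrX:134600956-134601255 (minus strand), has 2, both in the form TCACGTGA, at 227 and 194 bases before the start.
Lamp1: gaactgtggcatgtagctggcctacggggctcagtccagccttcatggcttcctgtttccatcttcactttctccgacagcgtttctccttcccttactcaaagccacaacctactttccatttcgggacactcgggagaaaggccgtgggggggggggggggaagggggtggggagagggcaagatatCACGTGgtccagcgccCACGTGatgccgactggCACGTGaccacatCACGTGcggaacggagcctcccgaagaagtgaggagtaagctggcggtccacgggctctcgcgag
Mcoln1: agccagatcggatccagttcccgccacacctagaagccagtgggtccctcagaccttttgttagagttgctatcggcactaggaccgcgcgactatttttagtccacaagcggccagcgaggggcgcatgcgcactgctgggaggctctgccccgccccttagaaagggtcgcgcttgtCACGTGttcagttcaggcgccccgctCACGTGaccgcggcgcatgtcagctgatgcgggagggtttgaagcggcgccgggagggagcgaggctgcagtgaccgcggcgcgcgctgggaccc
Cln3: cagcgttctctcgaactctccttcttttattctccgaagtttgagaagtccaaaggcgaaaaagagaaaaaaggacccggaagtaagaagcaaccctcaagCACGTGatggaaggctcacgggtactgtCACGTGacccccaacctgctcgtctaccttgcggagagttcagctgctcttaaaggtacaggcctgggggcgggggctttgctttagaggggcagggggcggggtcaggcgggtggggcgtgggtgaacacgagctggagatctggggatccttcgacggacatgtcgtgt
Gla: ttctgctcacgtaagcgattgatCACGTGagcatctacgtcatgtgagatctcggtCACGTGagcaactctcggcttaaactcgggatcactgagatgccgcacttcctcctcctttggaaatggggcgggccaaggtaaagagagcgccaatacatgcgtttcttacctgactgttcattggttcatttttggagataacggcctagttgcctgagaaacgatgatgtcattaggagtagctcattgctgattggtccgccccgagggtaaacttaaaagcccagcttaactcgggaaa

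The other 6 promoters with the E-box hold 1 copy each, shown with 12 bases on either side so that the flanks can be compared. The windows lie at chr9:114401018-114401047 (Glb1, plus strand), chr11:101070009-101070038 (Naglu, plus), chr11:119267811-119267840 (Gaa, plus), chr11:119355522-119355551 (Sgsh, minus), chr12:102439124-102439153 (Lgmn, minus) and chr15:89477423-89477452 (Arsa, minus).
Glb1: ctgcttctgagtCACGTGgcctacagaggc
Naglu: caaccttcaggtCACGTGgcccgaggtcgg
Gaa: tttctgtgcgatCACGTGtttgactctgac
Sgsh: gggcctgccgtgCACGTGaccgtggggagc
Lgmn: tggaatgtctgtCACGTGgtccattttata
Arsa: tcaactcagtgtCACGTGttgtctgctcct

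The 10 genes with the E-box did not share a direction as deposited. Against All-EV, the 10 genes with it had a median log2 ratio of −0.08 in Ocn-EV (−0.56 to 0.45, 4 above 0 and 6 below) and −0.02 in Prx1-EV (−0.43 to 0.31, 4 above and 6 below). The 20 genes with a promoter lacking it had medians of 0.05 (11 above and 9 below) and 0.07 (13 above and 7 below). Over all tested genes 48.7% were above 0 in Ocn-EV and 50% in Prx1-EV. The split depended on scaling, since with equal totals only Lamp1 and Gla of the 10 lay below 0 in each comparison. Of the 20 lacking the E-box, Idua, Psap, Npc2, Scpep1 and Lamp2 did so, and of all 33 genes 9 did. That scaling moved all genes upward, with a median over tested genes of 0.24 in Ocn-EV and 0.22 in Prx1-EV. With no replicates these medians were not tested, and neither was the part of the E-box in the ratios.

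The first comparison asked how lysosomal genes of cultures given Ocn-EV differed from those given All-EV. Sulfatases and both transcription factors were higher, Psap, Npc2, Lamp1, Lamp2 and Npc1 were lower, and most glycosidases and proteases lay close to their All-EV levels. Gusb and Ids were at least 1.5-fold higher and Psap and Npc1 at least 1.5-fold lower, 2 genes in each direction out of 33. Over all tested genes 13.8% were higher and 13.7% lower by that amount. None of the 33 was 2-fold apart, a size that 6.34% of tested genes reached upward and 4.25% downward. The median log2 ratio of the 33 was −0.08, with a range from −0.63 to 0.79, against −0.02 over all tested genes. At any size, 16 were higher (48.7% of tested genes) and 17 lower (51.3%). By counting error alone, 15 had an interval above 0 (32% of tested genes) and 15 below 0 (35%).

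The second comparison asked the same of Prx1-EV. Here Gusb, Tfeb, Ids and Arsb were at least 1.5-fold higher, 4 of 33 against 12.8% of tested genes, and 0 of 33 were lower by that amount, against 12.8%. None reached 2-fold in either direction (5.2% of tested genes upward and 3.7% downward). The median was 0.03, from −0.54 to 0.81, against 0.0004 over all tested genes. At any size, 18 were higher and 15 lower (50% of tested genes each way). Counting intervals lay above 0 for 16 genes (33% of tested genes) and below 0 for 11 (33.7%). Both comparisons use the same All-EV library, so an odd value in that culture would appear in both.

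**Figure D2:**
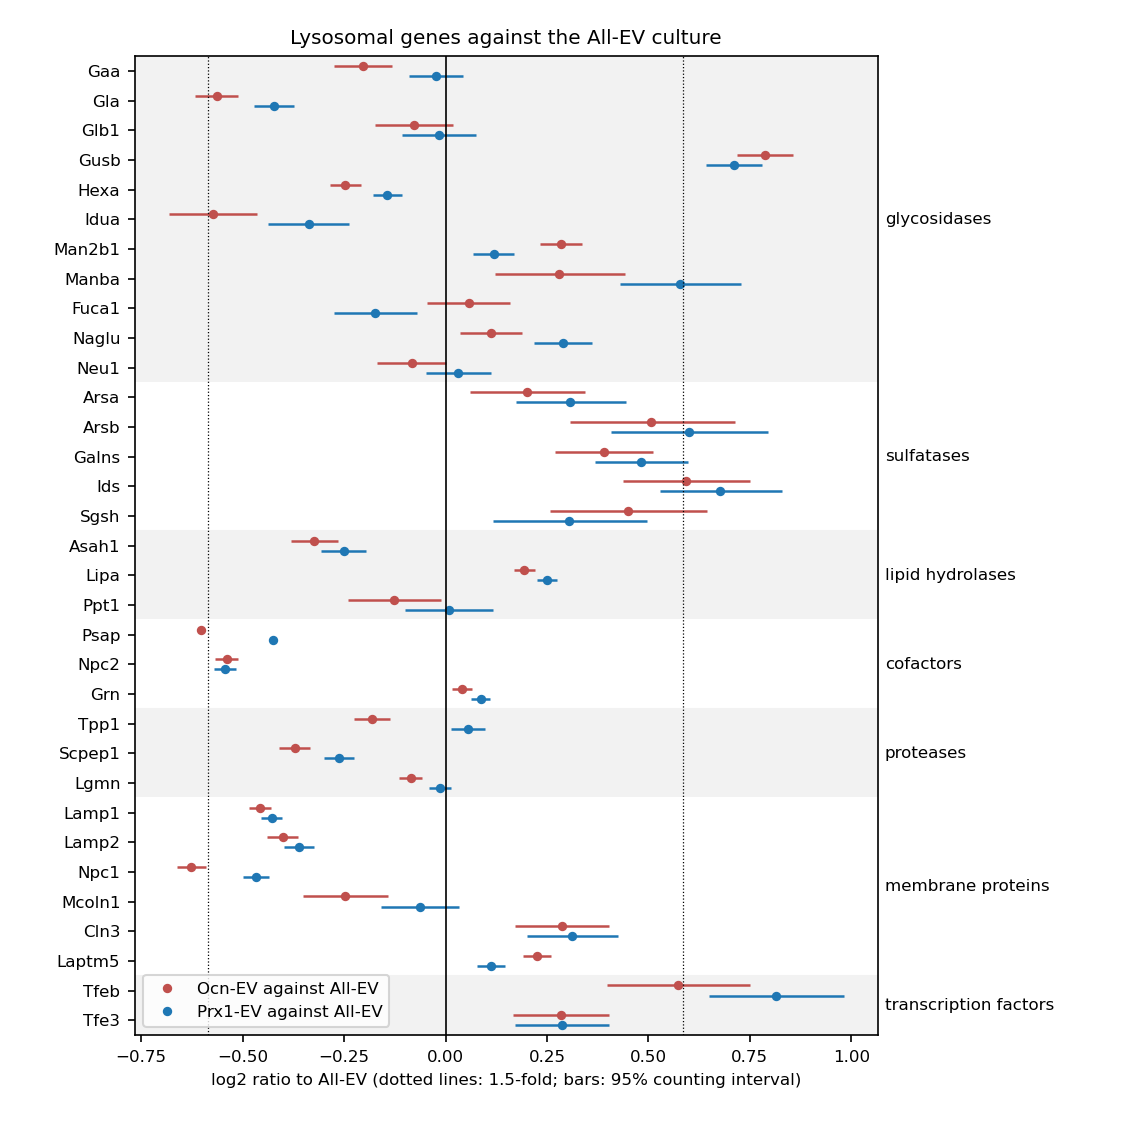
log2 ratio of each gene to All-EV in the Ocn-EV and Prx1-EV cultures, with 95% counting intervals as bars and 1.5-fold as dotted lines. The 5 sulfatases lie to the right of 0 in both colours, while Psap, Npc2, Lamp1, Lamp2 and Npc1 lie to the left.

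These directions depend in part on how the libraries are scaled. Setting the libraries to equal totals raised the median log2 ratio to All-EV of all tested genes to 0.24 (Ocn-EV) and 0.22 (Prx1-EV), and that of the 33 to 0.18 and 0.26. Then 6 genes in each comparison were at least 1.5-fold higher (24.8% and 23.1% of tested genes) and 0 were lower (6.7% and 6.56%). After a fit of length and GC content was subtracted, 2 were higher (12.5%) and 4 lower (11%) in the Ocn-EV comparison, and 3 higher (11.6%) and 2 lower (10.3%) in the Prx1-EV comparison. Under 4 scalings (as deposited, upper quartile, equal totals, and with the length and GC fit subtracted), 14 genes stayed above 0 in Ocn-EV against All-EV, 9 stayed below and 10 changed sign. In Prx1-EV against All-EV, 16 stayed above 0, 9 below and 8 changed sign. The share of all tested genes that kept a sign under the 4 scalings was not computed. These counts therefore do not set the 33 apart from other genes. The 9 that stayed below 0 in Ocn-EV were Gla, Idua, Asah1, Psap, Npc2, Scpep1, Lamp1, Lamp2 and Npc1.

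**Figure D3:**
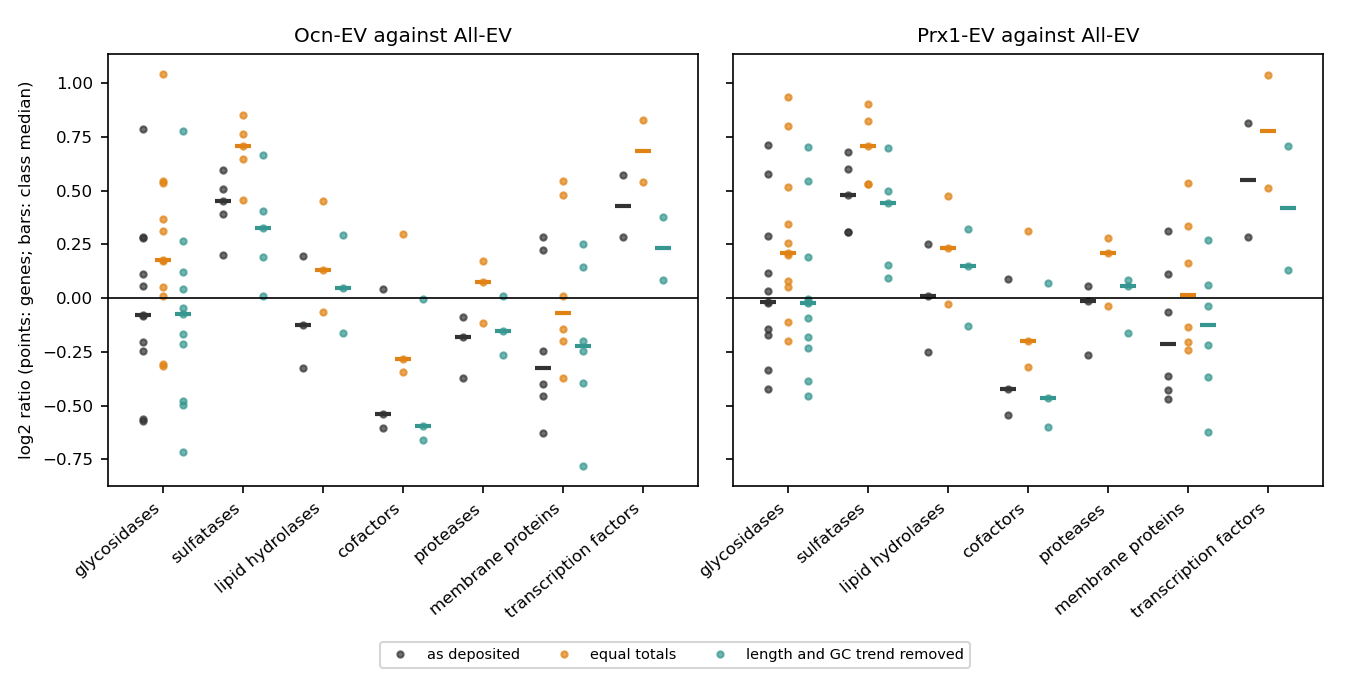
log2 ratios to All-EV by class under 3 scalings, with 1 point per gene and a bar at the class median. The sulfatase median is above 0 under each (0.45, 0.71 and 0.32 in Ocn-EV) and the cofactor median below (−0.54, −0.28 and −0.59), while the glycosidase median changes sign between the deposited scaling (−0.08) and equal totals (0.18).

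Glycosidases, which trim sugars from glycoproteins, glycolipids and glycosaminoglycans, differed among themselves. Of the 11, Gusb alone was past 1.5-fold with Ocn-EV, where 13.8% of tested genes were higher and 13.7% lower by that amount. Their median log2 ratio was −0.08 there and −0.02 with Prx1-EV, and 0.18 and 0.21 with equal totals. Gusb (chr5:129989011-130003049), the beta-glucuronidase that acts on glycosaminoglycans, stood at 2870, 4952 and 4699. All-EV was the low library, and the ratios were 0.79 (0.72 to 0.86) and 0.71 (0.64 to 0.78). Gla, the alpha-galactosidase that clears globotriaosylceramide and has the paired E-boxes shown above, stood at 7444, 5035 and 5552, highest with the wild-type vesicles. Its levels were 1.48-fold lower with Ocn-EV and 1.34-fold lower with Prx1-EV. Idua, the alpha-iduronidase of heparan and dermatan sulfate breakdown, stood at 1823, 1226 and 1444, again highest in All-EV, 1.49-fold and 1.26-fold lower in the others. Manba, a beta-mannosidase, stood at 638, 776 and 953, with Prx1-EV highest (0.28, 0.12 to 0.44, and 0.58, 0.43 to 0.73). Man2b1, the alpha-mannosidase of glycoprotein turnover, was highest in Ocn-EV, at 6016, 7333 and 6531.

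The remaining glycosidases lay within 1.25-fold of All-EV in both cultures. Hexa, the alpha chain of beta-hexosaminidase, had the highest level of the class per kilobase, at 6589, 5552 and 5967. Gaa, the acid glucosidase that degrades glycogen, had levels of 3722, 3234 and 3660. Naglu, which removes N-acetylglucosamine from heparan sulfate, had 2915, 3150 and 3565, with a ratio of 0.29 (0.22 to 0.36) in Prx1-EV. Fuca1, the fucosidase, had 1645, 1712 and 1459, higher in Ocn-EV than in Prx1-EV. Glb1, the beta-galactosidase, had 1932, 1831 and 1910, and Neu1, the sialidase, 2530, 2389 and 2586. For Glb1 and Neu1 the intervals against All-EV spanned or touched 0 in both cultures. Ctsa, the protective protein that forms a complex with those enzymes, stood at 31920, 32628 and 37656.

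Sulfatases remove sulfate groups from glycosaminoglycans and sulfolipids and depend on SUMF1 for activation of their catalytic residue. All 5 had an interval above 0 in both cultures, as did 32% of tested genes in Ocn-EV and 33% in Prx1-EV, with a median log2 ratio of 0.45 in Ocn-EV and 0.48 in Prx1-EV. At 1.5-fold 1 of the 5 was higher in Ocn-EV (13.8% of tested genes) and 2 in Prx1-EV (12.8%), or 4 and 3 with equal totals (24.8% and 23.1%). Ids, the iduronate sulfatase on the X chromosome (chrX:70343069-70385834), stood at 611, 923 and 978, with ratios of 0.59 (0.44 to 0.75) and 0.68 (0.53 to 0.83). Arsb, which acts on dermatan and chondroitin sulfate, stood at 373, 531 and 566, 1.42-fold and 1.52-fold higher. Galns, which acts on keratan sulfate and chondroitin sulfate, stood at 1091, 1430 and 1523. Sgsh, the heparan N-sulfatase, stood at 420, 574 and 519, and Arsa, the cerebroside sulfatase, at 818, 941 and 1013. All-EV was the low library for each of the 5.

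Sumf1 did not share that pattern, at 1538, 1432 and 1340. Removal of the length and GC trend lowered the sulfatase medians to 0.32 and 0.44, and put Arsa at 0.01 in Ocn-EV. The class has long transcripts (median 4038 bases, against 3241 for tested genes) and a high GC content (median 55.6%, against 50.1%). Across 10798 tested genes of the same libraries, the Ocn-EV ratio to All-EV correlated with length at a Spearman rho of 0.27. The Prx1-EV ratio did so at 0.30. With GC content these values were 0.15 and 0.09. Under the fit Ids, the longest sulfatase (4972 bases, GC 41.4%), rose from 0.59 to 0.67 with Ocn-EV. Arsa, Arsb, Sgsh and Galns fell, Galns (2557 bases, GC 55.6%) from 0.39 to 0.32. The separate parts of length and GC in these shifts were not tested. Sgsh overlaps Slc26a11, a transporter gene that had 236, 647 and 743 reads, and Galns overlaps Trappc2l (608, 575 and 624 reads). No label tells whether reads were counted by strand, and the part of the overlapping gene in the Sgsh value was not tested. The summed stromal fibroblast markers, mostly Col1a1 and Col1a2, were also higher in these cultures (0.550% of reads in Ocn-EV and 0.357% in Prx1-EV, against 0.0859%). Their part in the sulfatase values was not tested.

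Lipid hydrolases gave no common direction, at a median of −0.13 in Ocn-EV and 0.01 in Prx1-EV. Lipa, the acid lipase that frees cholesterol and fatty acids from internalised lipoproteins, stood at 23996, 27448 and 28554, lowest in All-EV (0.19, 0.17 to 0.22, and 0.25, 0.23 to 0.28). Asah1, the acid ceramidase, stood at 5736, 4585 and 4820, highest in All-EV and 1.25-fold and 1.19-fold lower in the others. Ppt1, which removes palmitate from proteins, stood at 1392, 1276 and 1399. It overlaps Cap1, which had 8401, 9621 and 11112 reads.

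The soluble cofactors held the largest part of the lysosomal reads. Psap (chr10:60277628-60302600), whose product is cut into the saposins that present sphingolipids to their hydrolases, stood at 414765, 273252 and 309114. All-EV was highest, and Psap was 1.52-fold lower in Ocn-EV (log2 −0.60, −0.61 to −0.59) and 1.34-fold lower in Prx1-EV (−0.42, −0.43 to −0.42). With equal totals these ratios were −0.35 and −0.20, so the 1.5-fold call in Ocn-EV was lost while the direction was kept. Npc2, which carries cholesterol within the lumen, stood at 26200, 18030 and 17969, and was 1.45-fold and 1.46-fold lower. Its levels in Ocn-EV and Prx1-EV were the same within counting error (0.0049, −0.02 to 0.03). Grn, the progranulin gene, lay at 27231, 28000 and 28915, within 1.06-fold of All-EV. Gm2a, another lipid-presenting cofactor outside the 33, stood at 6872, 4723 and 5212. Lyz2, the macrophage lysozyme, stood at 140306, 51741 and 40548, and the part of the macrophage content in the Psap and Npc2 values was not tested.

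As deposited, proteases were at or below their All-EV levels with Ocn-EV, at a median log2 ratio of −0.18. With equal totals that median was 0.08, with Scpep1 at −0.12, Tpp1 at 0.08 and Lgmn at 0.17. Scpep1, a serine carboxypeptidase-like gene, stood at 13066, 10096 and 10892, highest in All-EV, with ratios of −0.37 (−0.41 to −0.33) and −0.26 (−0.30 to −0.23). Tpp1, the tripeptidyl peptidase, stood at 9130, 8055 and 9486, lowest in Ocn-EV. Its ratio to All-EV was −0.18 (−0.23 to −0.14) with Ocn-EV and 0.06 (0.01 to 0.10) with Prx1-EV. Lgmn, the asparaginyl endopeptidase legumain that processes cathepsins, stood at 21908, 20639 and 21689, a difference of at most 1.06-fold from All-EV.

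Membrane proteins did not share a direction. Lamp1 and Lamp2, the heavily glycosylated proteins that line the lysosome, were highest in All-EV. Lamp1, whose promoter holds 4 E-boxes, stood at 26006, 18942 and 19320 (−0.46, −0.49 to −0.43, and −0.43, −0.46 to −0.40). Lamp2 stood at 13541, 10251 and 10543, and per kilobase the ratio of Lamp1 to Lamp2 was 3.11, 2.99 and 2.96. Npc1, the membrane partner that takes cholesterol from NPC2, stood at 17080, 11066 and 12358, 1.54-fold and 1.38-fold lower. With equal totals Npc1 had ratios of −0.37 and −0.24, Lamp1 −0.20 in both cultures and Lamp2 −0.14 in both.

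Mcoln1, the calcium-conducting channel TRPML1, stood at 1767, 1489 and 1692, lowest in Ocn-EV (−0.25, −0.35 to −0.14), and with equal totals it stood at 0.01. Cln3, the Batten disease gene with the 10-base palindrome in its promoter, went the other way from Lamp1, at 1193, 1455 and 1481 (0.29, 0.17 to 0.40, and 0.31, 0.20 to 0.42). It overlaps Apobr, which had 2568 to 3358 reads. Laptm5, a lysosomal protein of blood cells, stood at 13776, 16095 and 14888, highest in Ocn-EV. Its ratio to All-EV (0.22 and 0.11) lay below the median of the 20 macrophage markers given above. Those markers went both ways by 1.5-fold, with 10 higher and 4 lower in Ocn-EV (13.8% and 13.7% of tested genes). In Prx1-EV 8 were higher and 6 lower (12.8% each way).

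Both transcription factors had intervals above 0 in each culture, as did 32% and 33% of tested genes. Tfeb (chr17:47737037-47792416) stood at 487, 724 and 856, with All-EV lowest. Its log2 ratios were 0.57 (0.40 to 0.75) and 0.81 (0.65 to 0.98), and it was also lower in Ocn-EV than in Prx1-EV (−0.24, −0.38 to −0.10). Tfe3, its X-linked relative, stood at 1137, 1385 and 1387, 1.22-fold higher in both. With the length and GC fit subtracted, the log2 ratios were 0.38 and 0.71 for Tfeb and 0.08 and 0.13 for Tfe3. With equal totals they were 0.83 and 1.04 for Tfeb and 0.54 and 0.51 for Tfe3. The ratio of Tfeb to Tfe3 per kilobase was 0.619, 0.756 and 0.893. Mitf, another relative and the regulator of melanocytes and osteoclasts, stood at 1367, 1852 and 2072. Tfec, also of the family, stood at 284, 213 and 208, highest in All-EV. These are transcript levels, and the activity of these factors is set largely by phosphorylation and nuclear entry, which were not measured.

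Across the 33 genes, those with high levels tended to have the lower ratios to All-EV. The Spearman rho between mean level per kilobase and log2 ratio was −0.59 in Ocn-EV and −0.61 in Prx1-EV, against −0.24 and −0.21 over 10798 tested genes. With the level taken from the library not in the ratio, rho was −0.55 in each, against −0.17 and −0.12 over the tested genes. Without the sulfatases and transcription factors, rho was −0.31 and −0.32 over 26 genes. These points come from the same libraries and are a description with no test. Position showed no common direction, since of the 4 genes on the X chromosome Ids and Tfe3 were higher and Gla and Lamp2 lower in both cultures.

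**Figure D4:**
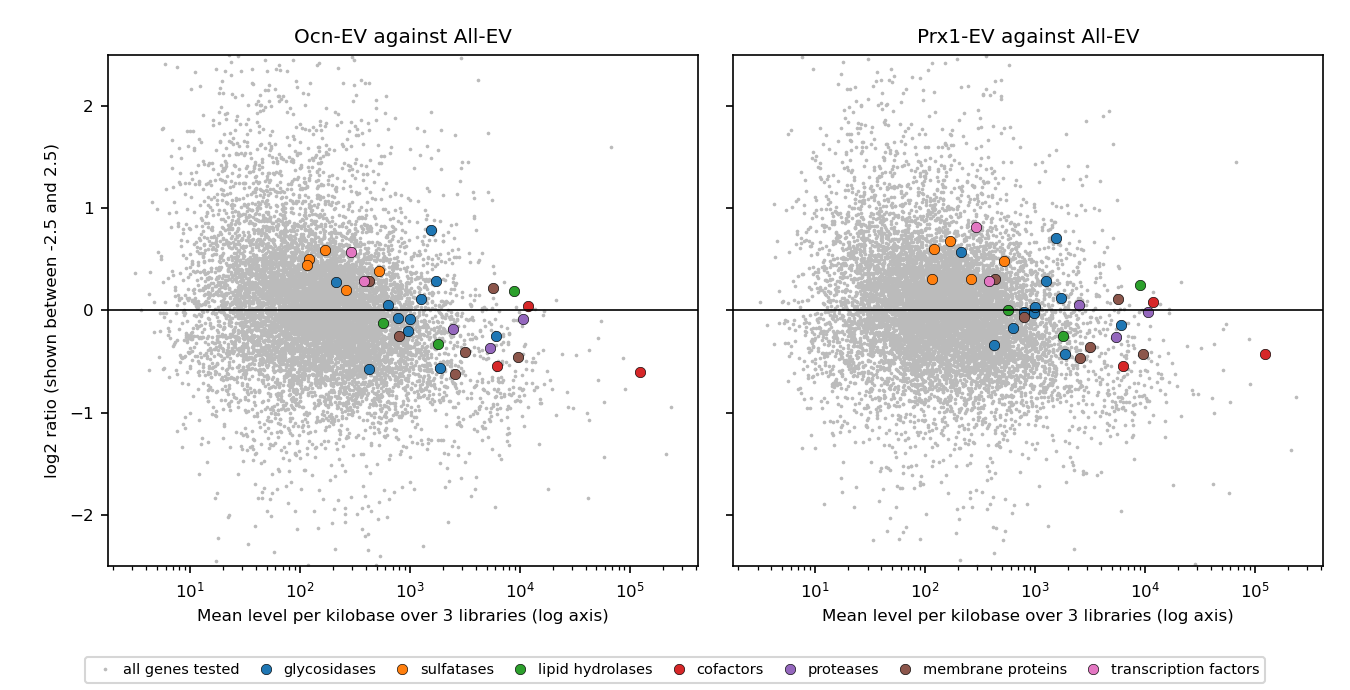
Mean level per kilobase (log axis) against the log2 ratio to All-EV for the 33 genes by class, over all tested genes with a known length in grey; ratios beyond 2.5 are not drawn. Sulfatases and transcription factors sit at the left above 0, and Psap sits at the far right below 0.

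The third comparison set the 2 Cre-derived preparations against each other, with no shared control. The differences were small. Of the 33 genes, 0 were 1.5-fold higher and 0 were 1.5-fold lower in Ocn-EV, where 2.32% and 1.33% of tested genes were. None was 2-fold apart either (0.352% and 0.226% of tested genes). Counts at 1.5-fold were also 0 and 0 with equal totals (2.75% and 1.12%) and with the length and GC fit subtracted (2.16% and 1.08%). The ratios ran from −0.30 to 0.23 with a median of −0.09. Most lay on the Prx1-EV side, with 27 below 0 as deposited (53% of tested genes), 6 above (47%) and 24 with equal totals. Counting intervals were below 0 for 20 genes (20.3% of tested genes) and above 0 for 4 (15.8%), shares that also depend on read depth. The genes lowest in Ocn-EV were Manba (−0.30, −0.43 to −0.16), Tfeb, Tpp1 (−0.24, −0.28 to −0.19) and Idua (−0.24, −0.34 to −0.13). The 4 with an interval above 0 were Fuca1 (0.23, 0.13 to 0.33), Man2b1 (0.17, 0.12 to 0.21), Laptm5 (0.11, 0.08 to 0.14) and Gusb (0.08, 0.02 to 0.13). Intervals of all 5 sulfatases included 0, and Psap was 1.13-fold lower in Ocn-EV.

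**Figure D5:**
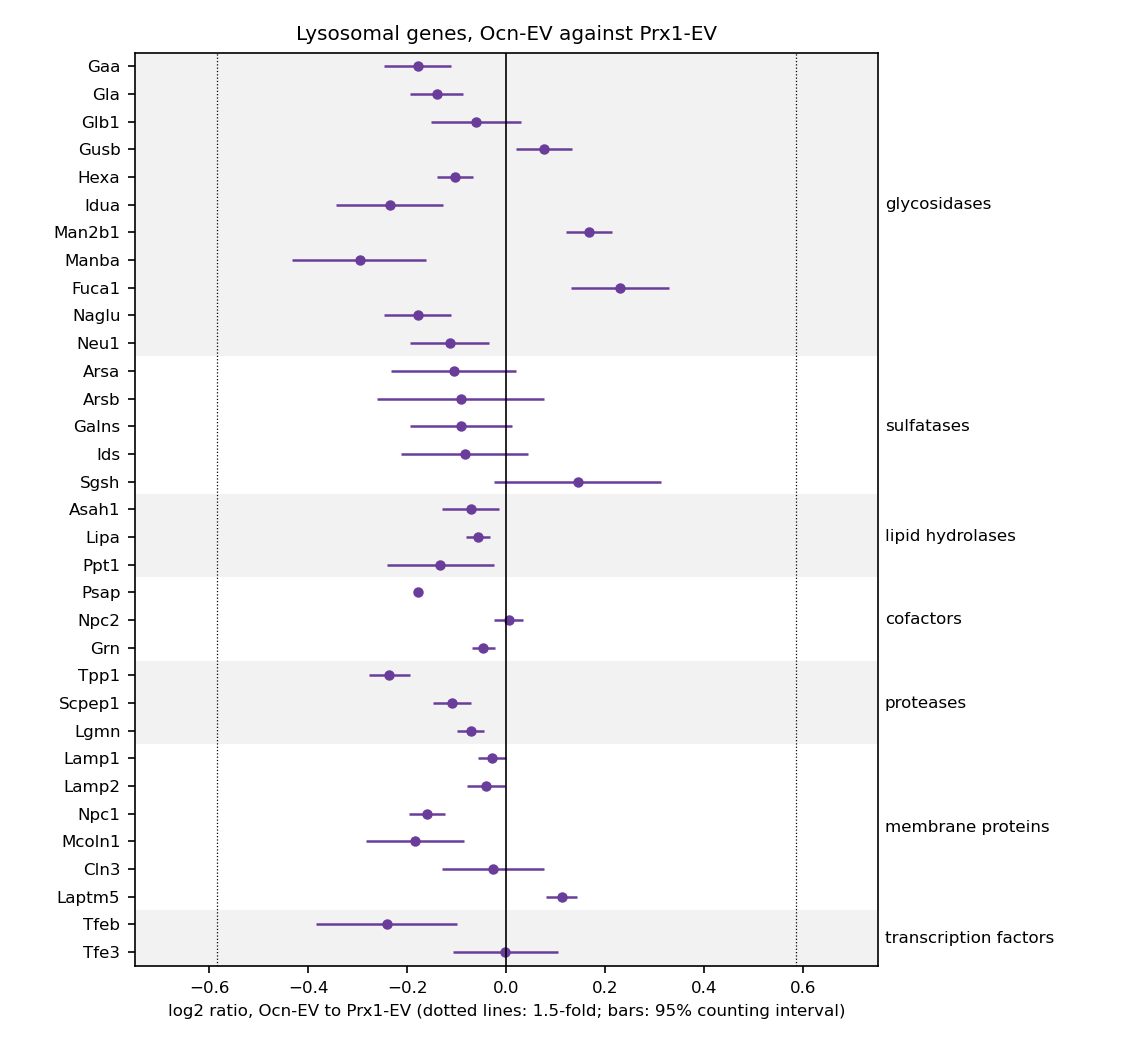
log2 ratio of Ocn-EV to Prx1-EV for each gene with its 95% counting interval; dotted lines mark 1.5-fold. None of the 33 points reaches a dotted line, and 27 lie to the left of 0.

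Other genes of the pathway, in lists put together by function, showed where the 33 genes stand. Their 1.5-fold counts are read against the shares of all tested genes, 13.8% higher and 13.7% lower with Ocn-EV and 12.8% each way with Prx1-EV. With equal totals those shares were 24.8% and 6.7%, and 23.1% and 6.56%. Of 23 further acid hydrolases and activators, 2 were 1.5-fold higher and 1 lower with Ocn-EV (median 0.0015), and 2 higher and 0 lower with Prx1-EV (0.08). With equal totals they were 5 and 1, and 4 and 0. Smpd1, the acid sphingomyelinase, stood at 435, 462 and 399. Of 14 genes that sort hydrolases to the lysosome, 0 were higher and 1 lower with Ocn-EV, and 1 higher and 1 lower with Prx1-EV. With equal totals 4 were higher and 0 lower, and 5 higher and 1 lower. The gene lower as deposited was the sorting receptor Sort1, at 3216, 1833 and 1673. The mannose 6-phosphate receptors were at 6820, 5853 and 6102 for M6pr and 4548, 5396 and 5785 for Igf2r. Gnptab, the transferase that starts the mannose 6-phosphate tag, stood at 2709, 3775 and 3975 (0.48, 0.40 to 0.55 in Ocn-EV).

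Of 22 other lysosomal membrane proteins and transporters, 3 were higher and 1 lower by 1.5-fold with Ocn-EV, and 4 higher and 0 lower with Prx1-EV, 5 and 0 in each with equal totals. Cd63, a tetraspanin of late endosomes and vesicles, stood at 18384, 17828 and 18612, and Scarb2, the membrane protein LIMP-2, at 2094, 2062 and 1995. Cd68, which is on both this list and the macrophage list, stood at 23880, 25719 and 28929. Most cathepsins were lower, with 6 of 11 tested lower by 1.5-fold in Ocn-EV (median −0.75) and 7 in Prx1-EV (−0.68), and 0 higher in either as deposited. With equal totals 3 were lower and 1 higher in Ocn-EV (median −0.49), and 4 lower and 0 higher in Prx1-EV (−0.46). Ctsd stood at 263914, 154652 and 160125, Ctsb at 270657, 224751 and 237988, and the osteoclast protease Ctsk at 4185, 843 and 967. Gpnmb, a lysosomal glycoprotein of loaded macrophages, stood at 383799, 278017 and 316648, highest in All-EV as Psap was. The list of 18 regulators of TFEB also holds its relative Mitf. Of these genes, 0 were higher and 2 lower with Ocn-EV, and 1 higher (Mitf, 1.52-fold) and 0 lower with Prx1-EV. With equal totals the tally turned to 3 higher and 0 lower, and 4 higher and 0 lower. The folliculin gene Flcn stood at 1360, 1718 and 1863.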

How the data were processed

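Messenger RNA of 3 mouse bone marrow stromal cell cultures (1 per vesicle preparation) was sequenced from 100 ng of total RNA as 150-base read pairs, per the labels' protocols. The authors deposited 1 normalised signal per gene and library. The submitters' processing notes name the build mm10 and the tools HISAT2 2.2.1, Trimmomatic 0.38.1, DESeq2 2.11.40.8, FastQC 0.74 and featureCounts 2.0.3, without roles or settings. All values (100% in each library, tolerance 1e-06) were whole multiples of 1 read, worth 1.13 (All-EV), 1.04 (Ocn-EV) or 0.872 (Prx1-EV), so reads were recovered by division.

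Symbols came from RefSeq GRCm38.p6, the mm10 build (25275 of 27179 identifiers matched). The ratio was log2((a + 1)/(b + 1)), and folds are plain ratios. Genes with a mean of at least 50 were tested, and shares carry Clopper-Pearson intervals. Lengths came from GENCODE vM21, with 97.6% of tested genes matched. An exact binomial test on reads with Benjamini-Hochberg adjustment, which compares libraries and not conditions, called 7134, 7092 and 2840 of 11067 genes in the 3 comparisons. Of the 33 genes, 16 overlap another RefSeq gene and 9 a protein-coding one. Calculations used Python 3.11.15, numpy 2.4.6, pandas 2.3.3 and scipy 1.17.1, and were tested on simulated data. All 33 genes are named, and further genes were named from a fixed list, some of which are not reported here. The members and lists were chosen with earlier results of these data known.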

Additional observations from a re-analysis of the deposited data

How the results depend on the processing

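With 1 library per group, replicates could not be left out. No paired analysis was possible because each group has a single library. With the libraries at equal totals, the median log2 ratio of the 33 genes turned from −0.08 to 0.18 in Ocn-EV against All-EV and moved to 0.26 in Prx1-EV against All-EV. In Ocn-EV against All-EV, 6 genes were then 1.5-fold higher and 0 lower. Upper-quartile scaling left 1 gene 1.5-fold lower in that comparison. Subtracting the length and GC fit gave it a median of −0.0040 with 4 genes lower, and gave 2 lower genes in Prx1-EV against All-EV. The exact test on reads, in place of the 1.5-fold rule, called 15 higher and 15 lower (Ocn-EV against All-EV), 16 and 11 (Prx1-EV against All-EV) and 4 and 16 (Ocn-EV against Prx1-EV), where it called 7134, 7092 and 2840 of all 11067 genes. Pseudocounts of 0 and 10 and filters of 10, 200 and none left these medians and counts alike. Of 99 single-gene ratios, 73 left their counting interval with equal totals, 44 after trend removal and 2 with upper-quartile scaling, and none of the 1.5-fold calls changed sign. Counting error was widest for Arsb, with 330 reads in All-EV and an interval of 0.31 to 0.71 in Ocn-EV.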

Other observations

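Genes of autophagy and of the proton pump, which feed and acidify the lysosome, were tested as further lists. Of 20 autophagy genes, 0 were 1.5-fold higher and 4 lower in Ocn-EV against All-EV (median log2 −0.20), and 0 higher and 3 lower in Prx1-EV (−0.22). Over all tested genes 13.8% were higher and 13.7% lower in the first comparison, and 12.8% each way in the second. With equal totals the medians were 0.06 and 0.01, with 1 higher and 1 lower in each comparison. Sqstm1, the cargo receptor p62, stood at 33298, 13774 and 14147 (All-EV first, Prx1-EV last), a log2 ratio of −1.27 (−1.30 to −1.24) with Ocn-EV, and it kept its direction with equal totals (−1.02 and −1.01). Of 18 subunits of the vacuolar proton pump, 1 was higher and 3 lower in each comparison, with medians of −0.41 and −0.29 (−0.15 and −0.06 with equal totals, 1 higher and 1 lower in each). Against Prx1-EV, Ocn-EV had 0 genes of either list past 1.5-fold, where 2.32% of tested genes were higher and 1.33% lower.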
